A study of Mus musculus with 12 samples.

Results

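Vcam1, Icam1, Icam2, Sele, Selp and Ackr1 encode endothelial surface molecules that leukocytes meet on their way out of the blood, and their messenger RNA is described here in endothelial cells sorted from mouse mesentery and epididymal fat. The genes were chosen by name, with earlier results of these data known. Each symbol matched 1 row of the deposited table, so 6 of its 27825 genes are described. All 6 passed the filter on low values, a mean of at least 10 normalized counts over the 12 libraries, which 22238 genes passed. The normalized count is the number of reads of a gene scaled for the depth of its library. All groups were male mice of the genotype ROSA26-eYFP+/+ Cdh5-CreERT2+, in which tamoxifen switches on a yellow fluorescent reporter in cells where the Cdh5 promoter drives the recombinase. Every group, controls included, ate tamoxifen food for 2 weeks, starting at an age of 6 weeks. At 8 weeks the food became normal chow (5.8% fat) or a high fat diet (60% fat), which lasted 12 to 13 weeks. Each of the 4 groups (mesentery or epididymal fat, either diet) has 3 libraries, lettered A, B and C, and each library pools 6 mice. Since the protocol mentions 2 independent replicates, some of the 3 libraries in each group may share an experiment, and p-values measure the spread between libraries only. The mesentery and the epididymal library of a letter and diet carry the same number, called the pool number here: 50, 51 and 87 for chow A, B and C, and 88, 52 and 53 for high fat A, B and C.

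Leukocytes leave the blood mostly through postcapillary venules. Selectins on the vessel wall catch passing cells and let them roll, chemokines held on the endothelial surface activate their integrins, and immunoglobulin-family ligands such as ICAM-1, ICAM-2 and VCAM-1 then hold them firmly. Most resting endothelium carries ICAM-2, whereas E-selectin, VCAM-1 and much of ICAM-1 are made after inflammatory cytokines signal through NF-kB, and P-selectin and ACKR1 are typical of venules. Adipose tissue is a site where leukocytes accumulate in obesity. The series title asks about endothelial heterogeneity after an obesogenic diet, and the comparisons below ask whether these genes changed with the diet in either tissue, and whether they differed between the tissues.

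Libraries held 8348897 to 25397963 reads in listed genes. Mesentery chow replicate C was the shallowest, and it correlated less with its group's other libraries (Pearson r of 0.796 and 0.753 over genes) than they did with each other (0.926). It also had the highest share of reads on 694 smell and pheromone receptor genes, 3178 cpm against 105 to 2158 cpm in the other libraries. Tests of the members that rest on it are given with and without it. The likeness lists, the correlation of Selp with Ackr1 and many tests of other genes are given only with it. Cdh5, the gene of VE-cadherin, had 2172 to 4822 normalized counts and Pecam1 3730 to 12974, so endothelial markers were present in every library. Markers of other cells were present too. In bulk libraries, fewer cells of a type and less RNA per cell cannot be told apart.

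**Figure D1:**
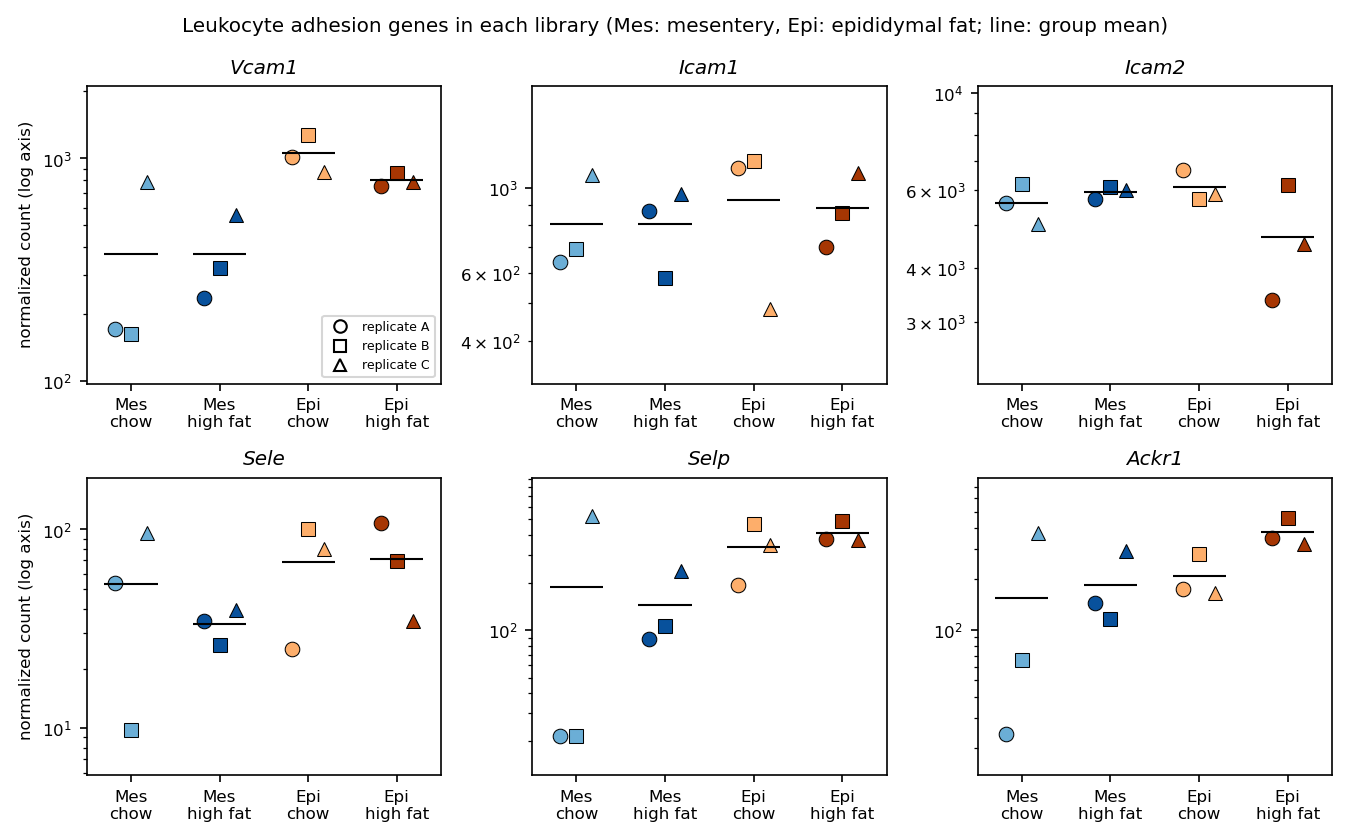
Normalized counts (log axis, each panel with its own range) of the 6 adhesion genes in each of the 12 libraries, by tissue and diet. Symbols are libraries A, B and C, and the black line is the group mean. Mesentery chow replicate C lies far above replicates A and B for Vcam1, Selp and Ackr1, at 781, 522 and 373.

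Among the firm adhesion ligands, Icam2 was the most abundant per kilobase of exon. Icam2 (ENSMUSG00000001029), a constitutive ligand for leukocyte beta2 integrins, had 5598, 6201 and 5032 normalized counts in mesentery chow A, B and C. On the high fat diet the mesentery libraries had 5738, 6101 and 6015. Epididymal chow libraries had 6676, 5731 and 5888, and epididymal high fat libraries 3379, 6171 and 4522. Only epididymal high fat replicates A and C lay below the range of the other libraries, and every pair of neighbouring groups overlapped. Group means ± SD (n = 3 each) were 5610 ± 585 and 5951 ± 190 in mesentery and 6099 ± 506 and 4691 ± 1403 in epididymal fat, chow first. The diet comparison in epididymal fat gave a log2 change of -0.42 (SE 0.21, 95% interval -0.87 to 0.03), limma adjusted p = 0.804. Relative to the mean of 10 pan-endothelial genes the sign of that value turned, to 0.11. That scaling moved the median of all genes in this comparison from 0.10 to 0.62, so the turn is not read as particular to Icam2.

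Icam1 (ENSMUSG00000037405), whose product binds the beta2 integrins LFA-1 and Mac-1 and which cytokines induce, had group means between 804 and 930. Mesentery libraries had 642, 694 and 1083 normalized counts on chow, and 869, 581 and 962 on the high fat diet. Epididymal libraries had 1129, 1175 and 485 on chow, and 703, 858 and 1093 on the high fat diet. Each group covered much the same range, and the lowest value belonged to epididymal chow replicate C. Means ± SD (n = 3) were 806 ± 241 and 804 ± 199 in mesentery and 930 ± 386 and 884 ± 196 in epididymal fat. The log2 change with diet was 0.0027 in mesentery (95% interval -0.72 to 0.73) and 0.01 in epididymal fat (-0.71 to 0.74). These intervals do not show that the diets are equal for Icam1.

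Vcam1 (ENSMUSG00000027962) encodes the ligand of the integrin VLA-4 carried by monocytes and lymphocytes. It had 172, 162 and 781 normalized counts in mesentery chow A, B and C, and 237, 323 and 556 in mesentery on the high fat diet. Epididymal libraries had 1020, 1273 and 871 on chow, and 750, 859 and 784 on the high fat diet. Every epididymal chow library was above every mesentery chow library, and the same held on the high fat diet. Means ± SD (n = 3) were 372 ± 355 and 372 ± 165 in mesentery, and 1055 ± 203 and 797 ± 55.8 in epididymal fat. In epididymal fat the 3 high fat libraries all lay below the 3 chow libraries, yet the log2 change was -0.39 (SE 0.48, 95% interval -1.43 to 0.66), limma adjusted p = 1. The mesentery libraries on both diets overlapped fully.

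Per kilobase of exon, the selectins were the least abundant of the 6 genes. Sele (ENSMUSG00000026582), the gene of the cytokine-induced E-selectin, had 53.5, 9.86 and 95.7 normalized counts in mesentery chow and 34.6, 26.3 and 39.5 in mesentery high fat libraries. Epididymal values were 25.1, 101 and 79.7 on chow and 108, 69.4 and 34.7 on the high fat diet. The groups overlapped throughout, and single libraries of 1 group differed by up to 9.71-fold. Between 11 and 116 reads lay behind each value, so counting error is large. Means ± SD (n = 3) were 53.04 ± 42.9, 33.5 ± 6.67, 68.5 ± 39.1 and 70.7 ± 36.6 for mesentery chow, mesentery high fat, epididymal chow and epididymal high fat.

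Selp (ENSMUSG00000026580), the gene of P-selectin, which endothelium stores in granules with von Willebrand factor, varied most. Mesentery chow libraries A, B and C had 21.6, 21.5 and 522 normalized counts, a 24.3-fold range within the group. Mesentery high fat libraries had 87.9, 107 and 238. Epididymal libraries had 193, 465 and 343 on chow, and 379, 488 and 373 on the high fat diet. Mesentery chow replicate C was the highest of all 12 libraries, while replicates A and B of the same group were the lowest. On the high fat diet every epididymal library was above every mesentery library. Means ± SD (n = 3) were 188 ± 289 and 144 ± 81.8 in mesentery and 334 ± 136 and 413 ± 64.8 in epididymal fat, chow first.

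Ackr1 (ENSMUSG00000037872) encodes the atypical receptor that carries chemokines across venular endothelium without signalling through G proteins. Mesentery libraries had 23.9, 66.3 and 373 normalized counts on chow, and 144, 116 and 294 on the high fat diet. Epididymal libraries had 175, 281 and 164 on chow, and 352, 459 and 322 on the high fat diet. Mesentery chow replicate C was again far above replicates A and B. In epididymal fat all 3 high fat libraries were above the 3 chow libraries, and on the high fat diet all 3 epididymal libraries were above the 3 mesentery libraries. Means ± SD (n = 3) were 154 ± 191 and 185 ± 95.8 in mesentery and 207 ± 64.6 and 378 ± 72.1 in epididymal fat. The table lists the gene's type as processed transcript.

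Levels of different genes were compared per kilobase of merged exon (GENCODE M21 basic models). Icam2 ranked first in all 4 groups, with group means of 3659 to 4757 normalized counts per kilobase. Icam1 was second, at 317 to 367. Vcam1 (74.6 to 212) and Ackr1 (117 to 285) took the next places, Vcam1 being ahead only in epididymal fat on chow. Selp had 42.0 to 120 and Sele, the lowest in each group, 11.5 to 24.3. In the order of group means, the only neighbouring groups whose libraries did not overlap were, for Vcam1, mesentery high fat below epididymal high fat below epididymal chow, and for Ackr1, epididymal chow below epididymal high fat. In GENCODE M21 Vcam1 overlaps Gm43109 and Icam1 overlaps Gm47079 on the opposite strand, Selp overlaps Gm16587 and Gm16548 on the opposite strand, and Ackr1 shares exon bases with Cadm3 on the same strand. Whether counting used the strand is not given in the sources used here, so reads of such partners cannot be told apart where they overlap.

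Selp, Ackr1 and Sele varied most between the mesentery chow libraries (24.3-, 15.6- and 9.71-fold), so the 250 bases before the start of these 3 genes are shown, from RefSeq on GRCm38.p6, 5′ to 3′ on the gene's strand. That build differs from the mm39 build named in the submitters' processing notes, and no file value is placed on it. Selp lies at chr1:164115014-164115263 (plus strand), Ackr1 at chr1:173333504-173333753 (minus strand) and Sele at chr1:164047984-164048233 (plus strand).
Capitals mark AGGAAG, a core of ETS factor motifs, or its complement CTTCCT, and GATAA, a core of GATA factor motifs, searched on both strands.
Selp: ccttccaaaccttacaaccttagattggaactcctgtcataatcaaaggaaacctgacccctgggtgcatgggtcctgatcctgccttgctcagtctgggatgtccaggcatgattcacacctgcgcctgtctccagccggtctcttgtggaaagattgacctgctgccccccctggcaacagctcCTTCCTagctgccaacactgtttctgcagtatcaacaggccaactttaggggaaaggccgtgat
Ackr1: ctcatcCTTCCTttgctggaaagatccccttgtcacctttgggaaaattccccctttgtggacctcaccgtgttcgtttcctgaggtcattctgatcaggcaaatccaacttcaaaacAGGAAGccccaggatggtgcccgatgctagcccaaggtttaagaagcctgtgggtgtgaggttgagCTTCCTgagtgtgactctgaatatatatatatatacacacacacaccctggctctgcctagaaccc
Sele: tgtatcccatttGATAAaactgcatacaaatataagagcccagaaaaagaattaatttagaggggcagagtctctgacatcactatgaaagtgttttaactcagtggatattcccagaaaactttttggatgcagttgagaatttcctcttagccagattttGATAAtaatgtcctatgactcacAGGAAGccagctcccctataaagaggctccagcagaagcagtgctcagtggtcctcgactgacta

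The Selp window held 1 AGGAAG match, the Ackr1 window 3 and the Sele window 1, beside 2 GATAA matches in Sele. Of 32851 promoter windows of this length, 29.5% held AGGAAG and 22.6% held GATAA. A 10-base NF-kB consensus was searched too, by exact pattern, so sites that depart from it are not found. The consensus was in 7.25% of all windows and had no match in the windows of Selp, Ackr1, Sele or Icam1. The Icam1 window had no match to the other motifs either. A match is a description of letters, and no match says only that the exact pattern is not in the window. The missing NF-kB matches therefore do not show that these windows lack NF-kB sites. RefSeq windows were matched for 4 of the 6 genes, not for Vcam1 and Icam2.

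The high fat diet gave no called member in mesentery. Limma called 0 of 6 genes at an adjusted p under 0.05, 0 had an unadjusted p under 0.05, and edgeR and DESeq2 on recovered reads also called 0. Over all genes tested, 0.0135% were called, so few calls were made anywhere in this comparison. Selp had the largest log2 change at 1.03 (SE 0.92, 95% interval -0.94 to 3.01, adjusted p = 0.951), followed by Ackr1 at 1.00 (SE 0.71, interval -0.54 to 2.54, adjusted p = 0.920) and Vcam1 at 0.32 (SE 0.48, interval -0.73 to 1.37). The sign of the Selp value turned with edgeR (-0.29) and DESeq2 (-0.39). No member's libraries separated the diets, against 9.61% of all genes whose 2 groups did not overlap. These values rested on mesentery chow replicate C. Without it the log2 change of Selp was 2.55 with a limma adjusted p of 0.0449, and Selp was the only member called. Without that library Ackr1 was at 2.07 (limma adjusted p = 0.131) and Vcam1 at 1.06 (adjusted p = 0.233). Over the alternatives to the main fit, 1 (edgeR) to 150 (DESeq2) of all genes were called in this comparison. The count for the fit without replicate C is not given here, so the call is not read as particular to Selp. The median of the members was 0.20, and that of all genes -0.0023.

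In epididymal fat no member was called either. Limma, edgeR and DESeq2 each called 0 of 6, with 0 unadjusted p-values under 0.05, against 0.549% of all genes called by limma. The value farthest from 0 was that of Ackr1, a log2 change of 0.89 (SE 0.71, 95% interval -0.65 to 2.43, adjusted p = 1), then Icam2 at -0.42, with Vcam1 at -0.39 and Selp at 0.39. The libraries of the 2 diets did not overlap for 2 members, Vcam1 (lower on high fat) and Ackr1 (higher), where 13.5% of all genes showed such a separation. The members' median was 0.06, beside 0.10 for all genes. Macrophage markers had higher sums with the diet here, though limma called 0 of the 10 genes, with 6 at an unadjusted p under 0.05. The 10 macrophage and leukocyte genes summed to 5251 to 78739 normalized counts on chow against 120649 to 298505 on the high fat diet, and Adgre1, which defines macrophages, had 51.1 to 460 and 1191 to 3112. The pan-endothelial genes summed to 80217 to 97226 on chow against 44116 to 85092 on the high fat diet. Lyz2 made up most of the macrophage sums, and Cd79a had a value below 0, -0.33. The adipocyte genes Adipoq (-2.65) and Cfd (-5.84) were called lower and the fibroblast gene Lum (2.30) higher. The part of these shifts in the members' values was not tested.

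**Figure D2:**
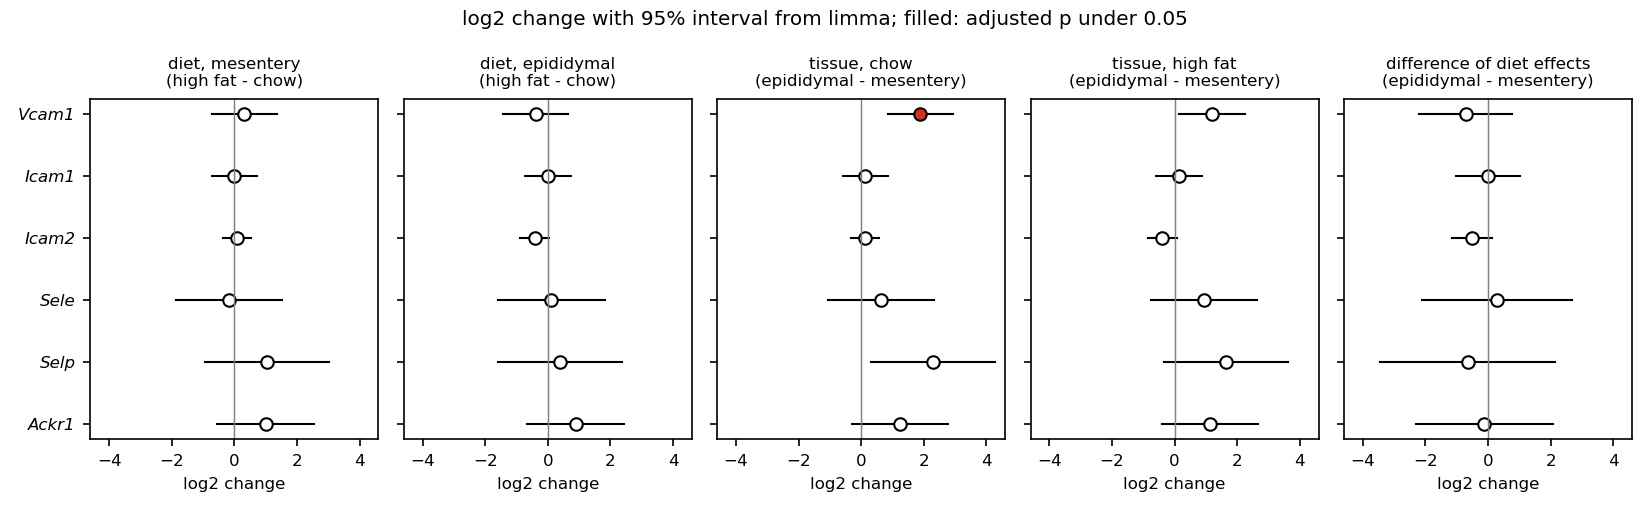
Log2 change of each adhesion gene in the 5 comparisons (points) with the 95% interval from limma (bars); the filled point has an adjusted p under 0.05. Vcam1 between the tissues on chow, at 1.89, is the only filled point, and the intervals of Selp, Sele and Ackr1 are the widest.

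Between the tissues, Vcam1 was higher in epididymal fat on chow and passed the test. Its log2 difference was 1.89 (SE 0.48, 95% interval 0.85 to 2.94), limma adjusted p = 0.0211. It was the 1 called member of 6, against 12.8% of all genes, and 2 members had an unadjusted p under 0.05. Selp had a larger but less certain difference of 2.29 (SE 0.92, interval 0.31 to 4.26, adjusted p = 0.130). Ackr1 was at 1.24 (adjusted p = 0.319), Sele at 0.63, Icam1 at 0.14 (interval -0.59 to 0.86) and Icam2 at 0.12 (interval -0.33 to 0.58). Vcam1 was also the 1 member whose libraries did not overlap, a separation that 28.7% of all genes showed. All 6 values were above 0, with a median of 0.94 beside -0.08 for all genes. The call of Vcam1 was lost with edgeR (1.59, adjusted p = 0.0840), without the mean-variance trend (adjusted p = 0.0687), with only the compared groups in the fit (adjusted p = 0.0681) and without 1 of mesentery A, mesentery B, epididymal A or epididymal B. It was kept in 12 of 19 alternatives, among them DESeq2 (1.502, adjusted p = 0.0311), and its adjusted p ranged from 0.000104 to 0.0997.

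The mitochondrial share of reads also went with the tissues on chow. It was 20.6%, 11.5% and 5.67% in mesentery chow A, B and C and 2.496% to 3.73% in epididymal chow libraries. The mesentery chow libraries low in Vcam1, Selp and Ackr1 thus had the highest shares. On the high fat diet the share was 5.96%, 10.1% and 8.09% in mesentery A, B and C. Epididymal high fat libraries had 5.94%, 4.15% and 3.07%. Mesentery high fat A, with the lowest share of its group, was also lowest for Vcam1 (237) and Selp (87.9). Ackr1 was lowest in mesentery high fat B (116), which had the highest share of that group. The part of this share in the tissue differences was not tested.

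The tissue difference on chow was larger without mesentery chow replicate C. Limma then called 3 members: Vcam1 at 2.63 (adjusted p = 0.000104), Selp at 3.80 (adjusted p = 0.000111) and Ackr1 at 2.30 (adjusted p = 0.0052). Among the libraries numbered 50 to 53 the same 3 genes were called, Vcam1 at 2.76, Selp at 3.73 and Ackr1 at 2.45. Calls over all genes rose there too, to 4349 from 2843 in the main fit. For the fit without replicate C alone the share of all genes called is not given here. The rise in called members is therefore not read as particular to these genes. The libraries numbered 87 and 88 hold 1 library a group, so no test can be made among them. In pool 87, the remaining chow pool, epididymal over mesentery was 1.11 for Vcam1, 0.657 for Selp and 0.441 for Ackr1. In pools 50 and 51 these ratios were 5.93 and 7.85 for Vcam1, 8.90 and 21.6 for Selp, and 7.34 and 4.25 for Ackr1. For Selp and Ackr1 the direction in pool 87 was the opposite of that in the other chow pools.

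**Figure D3:**
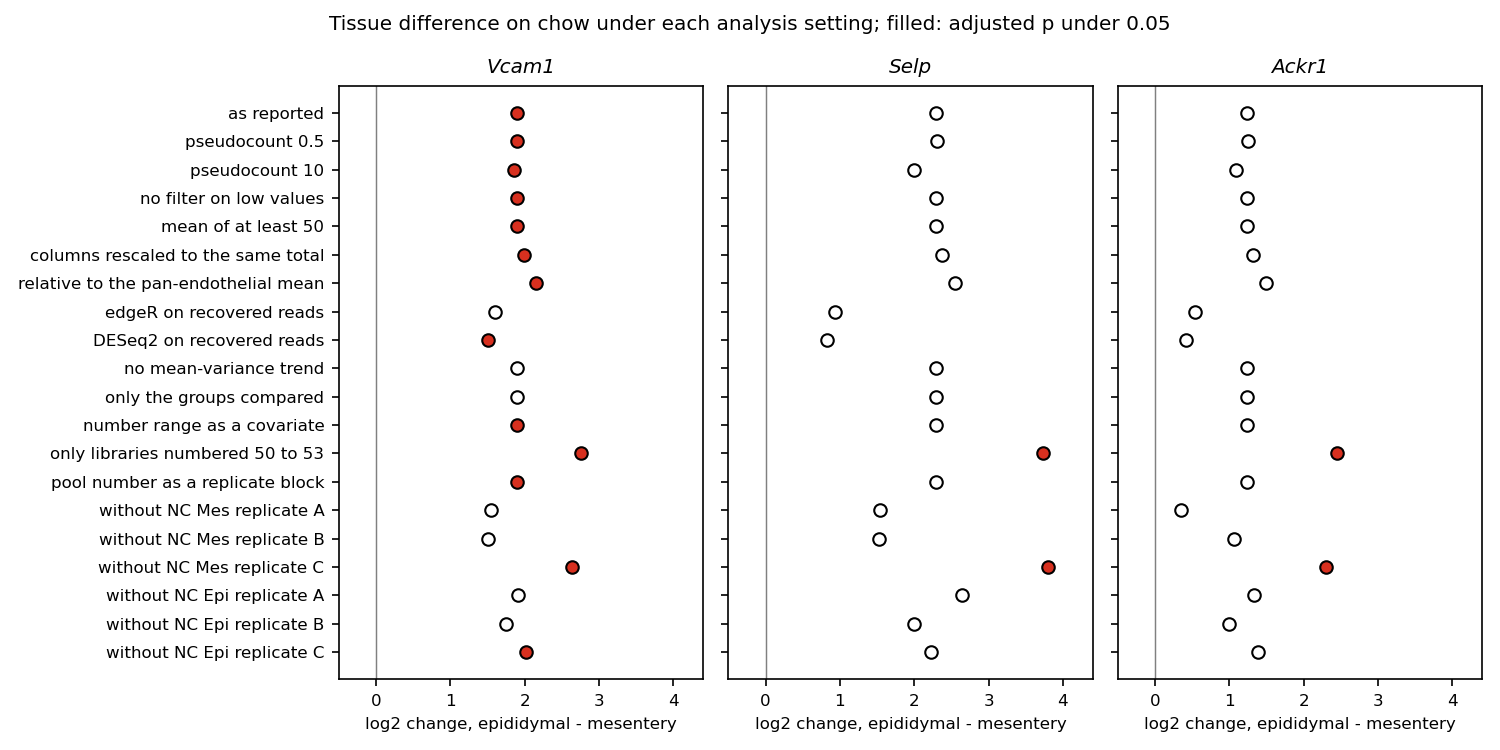
Log2 difference between epididymal fat and mesentery on chow for Vcam1, Selp and Ackr1 under each analysis setting (rows); filled points have an adjusted p under 0.05. Every point lies above 0, and Selp and Ackr1 are filled only where mesentery chow replicate C is left out, alone (3.80 and 2.30) or with the other libraries numbered 87 and 88 (3.73 and 2.45).

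On the high fat diet limma called 0 of 6 members, against 8.34% of all genes, with 1 unadjusted p under 0.05. EdgeR and DESeq2 also called 0. Vcam1 had a log2 difference of 1.19 (SE 0.48, 95% interval 0.14 to 2.23, adjusted p = 0.170), Selp 1.64 (SE 0.92, interval -0.34 to 3.62, adjusted p = 0.354) and Ackr1 1.13 (SE 0.71, interval -0.41 to 2.67, adjusted p = 0.434). Sele was at 0.93, Icam1 at 0.15 and Icam2 at -0.39. Vcam1, Selp and Ackr1 were higher in all 3 epididymal than in all 3 mesentery libraries, so 3 of 6 members separated the tissues, beside 26.4% of all genes. With the 2 high fat groups alone in the fit, Vcam1 (limma adjusted p = 0.0371) and Selp (adjusted p = 0.0238) were called. The share of all genes called in that fit is not given here, so the 2 calls are not read as particular to these genes. Within the high fat pools 88, 52 and 53, epididymal over mesentery was 3.17, 2.66 and 1.41 for Vcam1, 4.31, 4.57 and 1.57 for Selp, and 2.44, 3.94 and 1.09 for Ackr1. Over both diets Vcam1 was higher in the epididymal library of 6 of 6 pools.

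The difference of the diet effects between the tissues was tested as an interaction, and limma called 0 of 6 members, with 0 unadjusted p-values under 0.05; edgeR and DESeq2 called 0. Of all genes 0.0045% were called. Vcam1 had a difference of -0.71 (SE 0.69, 95% interval -2.19 to 0.77), Selp -0.65 (SE 1.30, interval -3.44 to 2.15) and Icam2 -0.51 (SE 0.30, interval -1.15 to 0.13). A call for Vcam1 on chow and none on the high fat diet therefore does not show that the tissue difference depended on diet. Without mesentery chow replicate C the values were -1.45 for Vcam1 (adjusted p = 0.292) and -2.16 for Selp (adjusted p = 0.276).

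Markers of other cells differed between the tissues with Vcam1, Selp and Ackr1. Macrophages and stromal cells can make VCAM-1, platelets and their precursors P-selectin, and erythroid precursors ACKR1. In mesentery the macrophage and leukocyte genes summed to 1478 to 6941 normalized counts on chow against 4028 to 25834 on the high fat diet, so the tissues overlapped on chow (5251 to 78739 in epididymal fat) and not on the high fat diet. Adipocyte, mural and mesothelial genes were also higher in epididymal fat on chow. The 5 adipocyte genes, all called higher, summed to 3235 to 5321 in mesentery and 55428 to 76065 in epididymal chow libraries. The 6 mural genes, 5 called higher, summed to 1281 to 1504 and 11981 to 22005, and the 6 mesothelial genes, 4 of 5 tested called higher, to 66.2 to 236 and 405 to 758. With the high fat diet 0 adipocyte, 3 mural and 1 mesothelial genes were called higher, and the adipocyte sums of the tissues overlapped (3595 to 7893 and 3514 to 12140). The 5 fibroblast genes summed to 4240 to 9434 in mesentery and 17192 to 54451 in epididymal fat. The 6 platelet genes in the table summed to 125 to 373 in mesentery and 833 to 5464 in epididymal fat, mostly Pf4, which macrophages also make. Itga2b, a defining platelet gene, had 15.9 to 60.8 in mesentery and 55.6 to 98.3 in epididymal fat. The 6 erythroid genes summed to 218 to 528 in mesentery and 42179 to 59420 in epididymal fat. In mesentery chow replicate C, where Selp was highest, the platelet sum was 239, the highest of its group (125 and 150 in A and B). There Pf4 was at 152, Itga2b at 45.1, Treml1 at 22.5, Gp1ba at 16.9 (the highest of the 12 libraries), Ppbp at 2.82 and Gp9 at 0, as Gp9 was in A and B. In the same library, where Ackr1 was 373, Hbb-bs was at 95.7, within the range of the other mesentery libraries (40.2 to 116). The part of these cells in the tissue differences was not tested.

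Venous and lymphatic genes differed between the tissues in both directions. Of 5 venous genes, Vwf, Lrg1 and Nr2f2 were called higher and Ephb4 (-1.46) and Tmem252 (-1.28) lower in epididymal fat on chow. Of 7 lymphatic genes 5 were called higher and Flt4 (-0.80) lower. On the high fat diet the calls in these lists were Ephb4 (-1.48) and Flt4 (-0.91), both lower. Vwf, the gene of von Willebrand factor, had 274, 254 and 1367 normalized counts in mesentery chow A, B and C, 658 to 999 in mesentery high fat and 1210 to 2122 in epididymal libraries. Lrg1, a venous marker, had 131, 151 and 1097 in mesentery chow and 370 to 625 in mesentery high fat libraries, against 1517 to 2767 in epididymal fat. Both rose from mesentery to epididymal fat on chow, Vwf by 1.94 (limma adjusted p = 0.0186) and Lrg1 by 3.14 (adjusted p = 0.00373) log2 units. The 7 lymphatic genes summed to 1332, 1522 and 13032 in mesentery chow A, B and C and to 11831 to 37637 in epididymal fat, and lymphatic endothelium can also carry VCAM-1. Ccl21a, which lymphoid stroma also makes, was 11665 of the sum in replicate C, against 322 and 497 in A and B. Madcam1 and Glycam1, addressin genes of the high endothelial venules of lymphoid tissue, had higher values in mesentery, though neither passed the test on chow (limma adjusted p = 0.118 and 0.0619). Madcam1 had 31.9, 31.4 and 2003 in mesentery chow, 85.0 to 182 in mesentery high fat and 3.30 to 19.1 in epididymal libraries. Glycam1 had 80.8, 107 and 2006 in mesentery chow, 1478, 147 and 275 in mesentery high fat and 1.74 to 91.1 in epididymal libraries. Chst4 and Fut7, enzymes of L-selectin ligand synthesis that were chosen after their values were seen, were at 103 and 73.2 in mesentery chow replicate C and at 0 to 56.2 and 0 to 29.7 in the other libraries. Mesentery chow replicate C was thus higher than A and B for the 4 high endothelial venule genes and for the venous genes Vwf, Lrg1, Nr2f2 and Tmem252. It was also higher for the lymphatic genes Ccl21a, Lyve1 (69.0 against 9.11 and 34.0), Mmrn1 (106 against 17.1 and 18.8) and Reln (279 against 15.9 and 3.58). The same held for Pdpn (46.5 against 12.5 and 4.48) and Prox1 (19.7 against 14.8 and 10.8), the latter from 12 to 14 reads a library. Replicate C was lowest of its group for the venous gene Ephb4 (1963 against 2793 and 3158) and the lymphatic gene Flt4 (848 against 941 and 953). Whether lymph node tissue was in that pool was not tested.

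**Figure D4:**
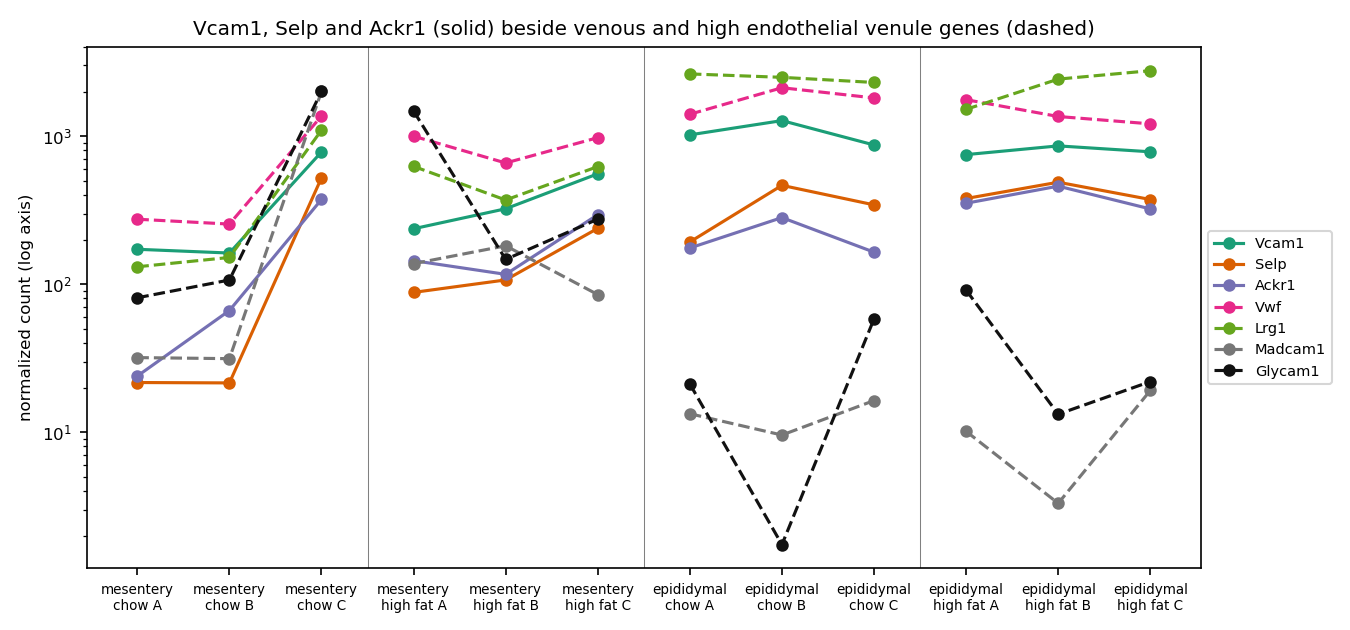
Normalized counts (log axis) of Vcam1, Selp and Ackr1 (solid lines) and of Vwf, Lrg1, Madcam1 and Glycam1 (dashed lines) in the 12 libraries; lines join the libraries of a group only to guide the eye. All 7 genes are far higher in mesentery chow replicate C than in replicates A and B, while Madcam1 and Glycam1 are low in epididymal fat.

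Across the 6 mesentery libraries Vcam1 and Selp went together. Their log2 values had a Pearson r of 0.976 (exact permutation p = 0.00139, adjusted p = 0.0417 over 30 pairs within tissues) and a Spearman rho of 1 (exact permutation p = 0.00278, adjusted p = 0.0833). Without the 2 libraries farthest from the median of Vcam1, mesentery replicates C of both diets, r was 0.947. Those left were chow A and B (Vcam1 172 and 162, Selp 21.6 and 21.5) and high fat A and B (Vcam1 237 and 323, Selp 87.9 and 107). Both genes were lower in the chow libraries there, so this r cannot be told apart from a difference between the diets. Selp and Ackr1 had r = 0.935 (exact permutation p = 0.0111, adjusted p = 0.153) and rho = 0.886 (exact permutation p = 0.0333, adjusted p = 0.250). In epididymal fat no pair passed the adjusted threshold. There Vcam1 and Selp had r = -0.05 (exact permutation p = 0.907, adjusted p = 0.938) and rho = -0.14 (exact permutation p = 0.803, adjusted p = 0.860). Each set of 6 mixes both diets, and 3 libraries a diet are too few to give r within one. Icam1, Icam2 and Sele had no pair past the threshold in either tissue.

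The genes most like each member over the 12 libraries, by Pearson r of log2 values among 9910 candidates whose mean reached 100, differed between members. For Selp they were Csf2rb2 (r = 0.958), Vwf (0.935) and Vcam1 (0.928). For Ackr1 they were Csf2rb2 (0.934), Selp (0.927) and Serpinb6b (0.924), so Csf2rb2 headed both lists. Vcam1 was most like Cda (0.958), Mir99ahg (0.947) and Ccl21a (0.947), the last a chemokine gene of lymphatic endothelium and lymphoid stroma. Icam2 was most like Slc50a1 (0.948), Odf3b (0.933) and Gpr4 (0.930), Icam1 like Ttpal (0.949), Mxd1 (0.865) and Srsf6 (0.855), and Sele like Psd3 (0.829), Txndc16 (0.808) and Lrrc39 (0.787). These are descriptions of 12 libraries that differ in tissue, diet and depth.

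Pathway genes outside the 6 were called between the tissues and not for the diet. The lists were recounted under the alternatives, a step chosen after seeing the data. Limma called 0 genes of the 7 pathway lists for the diet in either tissue, while 0 to 5 genes of a list in mesentery and 0 to 7 in epididymal fat had an unadjusted p under 0.05. DESeq2 on recovered reads called 3 sialomucins and transmigration molecules lower and 3 cytokine receptors, 2 endothelial chemokines and 1 of the leukocyte counter-receptors higher for the diet in epididymal fat, and edgeR called 0. Of 12 sialomucins and transmigration molecules, 0 were called higher and 6 lower in epididymal fat on chow, and those 6 genes were called lower on the high fat diet too: Cd34, Podxl, Emcn, Pecam1, Jam3 and Mcam. Podxl, which encodes the anti-adhesive sialomucin podocalyxin, differed by -1.79 log2 units on chow and -2.05 with the obesogenic diet. The junctional adhesion gene Jam3 was at -1.98 and -2.79, and the endomucin gene Emcn at -1.72 and -2.53. The list's median was -0.51 and -0.69, beside -0.08 and 0.06 for all genes. Pan-endothelial markers were lower in epididymal fat as well, with 5 of 10 called lower and 1 higher on chow and 6 lower and 1 higher on the high fat diet, and Pecam1, Emcn and Esam stand in both lists. Relative to the pan-endothelial mean 3 of the 12 sialomucins and transmigration molecules were called lower on the high fat diet, with a median of 0.01, and edgeR called 3. Without mesentery chow replicate C 5 were called lower on chow.

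Of 10 chemokine genes, 3 were called higher in epididymal fat on chow: the T cell attractant Cxcl9 (log2 difference 4.396), the neutrophil attractant Cxcl1 (1.67) and Cxcl16 (1.23). On the high fat diet 5 were called higher, these 3 at 2.72, 2.15 and 1.13 and the monocyte attractants Ccl2 (2.30) and Ccl7 (2.47), and Cx3cl1, the membrane-bound fractalkine, fell by 1.55. Macrophages also make several of them, and the macrophage sums above were higher in the same group. Without mesentery chow replicate C the endothelial chemokines had 5 called higher and 1 lower on chow, and edgeR called 2 higher on the high fat diet. Of 12 NF-kB genes, 3 were called lower on each diet: Nfkb1 (-1.11 on chow, -0.75 on the high fat diet), Chuk (-0.80 and -0.75) and Irf1 (-0.75 and -0.99). Relative to the pan-endothelial mean the NF-kB core and feedback list had 1 called lower on chow, and with the high fat diet 4 higher and 0 lower. That scaling moved the median of all genes from -0.08 to 0.18 on chow and from 0.06 to 0.76 on the high fat diet, where 5464 genes were called, so nothing particular to the list is read from these counts. Of 8 cytokine receptors, Il1r1 (-1.27) and Ifngr2 (-0.74) were called lower on chow and 0 were called on the high fat diet, where 3 had an unadjusted p under 0.05. Relative to the pan-endothelial mean the cytokine receptors had 2 called higher and 0 lower on chow and 5 higher on the high fat diet, beside the same shift of all genes. Of 5 docking-structure genes, which tie adhesion ligands to the actin cytoskeleton, Rdx (-1.79) and Msn (-0.82) were called lower on chow and Rdx (-1.93) on the high fat diet. Ackr2, the decoy receptor of inflammatory CC chemokines, was the 1 called gene of 6 measured relatives, higher in epididymal fat on chow by 3.94 (SE 1.08). Its mesentery chow values, 5.69, 0.896 and 4.22 normalized counts, rested on 1 to 5 reads, so the size of that difference is uncertain.

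Leukocyte counter-receptors are integrins and ligands through which leukocytes bind ICAMs, VCAM-1 and selectins. Some, such as Cd44, are also made by stromal and endothelial cells, and the source of their RNA was not tested. Of 9, Cd44 was called higher in epididymal fat on chow (2.04), and Cd44 (2.15) and Selplg, the P-selectin ligand gene (2.99), on the high fat diet. Their sum was 191 to 569 normalized counts in mesentery chow, 416 to 2410 in mesentery high fat, 815 to 3248 in epididymal chow and 4370 to 10593 in epididymal high fat libraries. The sum in high fat epididymal libraries thus lay above all others. For the diet limma called 0 of the 9, though 5 in each tissue had an unadjusted p under 0.05 and all 9 values were above 0. Among them Selplg had a log2 change of 2.86 in epididymal fat (limma adjusted p = 0.200).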

How the data were processed

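Endothelial cells sorted for the reporter were profiled by bulk RNA-seq in 12 libraries, 3 in each of 4 groups taken from the sample titles. The deposited values are a signal, normalized counts per gene that the authors made; the submitters' processing notes name STAR 2.7.9a, featureCounts, Subread, DESeq2 1.34.0 and mm39. All values (100%, relative tolerance 1e-06) were whole reads times a step per library. A floor of 3 reads is 2.12 to 4.22 normalized counts, counting error only. The lowest total of a gene was 51 reads.

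Tests used limma 3.58.1 in R 4.3.3, fitted to log2(normalized count + 1) with all 4 groups in 1 model, a mean-variance trend and no covariate. Folds on this scale understate the change of low genes. P-values were adjusted by Benjamini-Hochberg over 22238 genes within a comparison, with a threshold of 0.05. EdgeR 4.0.16 and DESeq2 1.42.0 were run on the recovered reads as alternatives. Correlations used exact permutation of pairings, two-sided. Likeness took the 3 genes of highest r. Named pathway genes are those called. Members and lists were chosen with earlier results of these data known. Icam4, Icam5, Gp1bb and Slc4a1 were not analysed here.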

Additional observations from a re-analysis of the deposited data

How the results depend on the processing

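Of 600 values of single members under alternatives, 527 kept direction and call, 57 changed sign, 9 gained and 7 lost the call; the cause was not tested. No called value changed sign. Members called between tissues on chow (1) became 0 with edgeR, without the trend and with only the groups compared, 3 among libraries 50 to 53, and 0 to 3 when 1 library was left out: 3 without mesentery chow C, 0 without mesentery A or B or epididymal A or B. On the high fat diet the count (0) became 1 relative to the pan-endothelial mean (Vcam1 1.89, adjusted p = 0.0200), 2 with only the groups compared and 1 among libraries 50 to 53 (Vcam1 0.95). In mesentery the diet count was 0 to 1 with 1 library left out. Pan-endothelial scaling moved the median of all genes to 0.62 for diet in epididymal fat and 0.76 for tissue on the high fat diet.

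Signs changed as follows (log2). Diet in mesentery: Selp -0.29 (edgeR) and -0.39 (DESeq2), Vcam1 -0.0018 and Icam1 -0.0068 (DESeq2), Sele 0.45 (libraries 50 to 53), and with 1 library left out Vcam1 -0.0715 to 1.06, Icam1 -0.14 to 0.23 and Sele -1.09 to 0.48. Diet in epididymal fat: Icam1 -0.13 (rescaled totals), -0.082 (edgeR), -0.0677 (DESeq2) and -0.25 (libraries 50 to 53), Sele -0.0196 (rescaled) and -0.0396 (libraries 50 to 53), Vcam1 0.14 and Icam2 0.11 (pan-endothelial), and with 1 library left out Icam1 -0.40 to 0.23 and Sele -0.48 to 0.55. Tissue on chow, 1 library left out: Icam1 -0.0837 to 0.55 and Sele -0.28 to 1.30. Tissue on high fat: Icam1 -0.0401 (rescaled) and -0.0715 to 0.30 (1 library left out), Icam2 0.32 (pan-endothelial). Difference of diet effects: Icam1 -0.27 (rescaled), -0.11 (edgeR), -0.0609 (DESeq2) and -0.41 (libraries 50 to 53), Selp 0.60 (edgeR) and 0.70 (DESeq2), Ackr1 0.33 (pan-endothelial), 0.51 (edgeR) and 0.61 (DESeq2), Sele -0.49 (libraries 50 to 53), and with 1 library left out Icam1 -0.41 to 0.23, Sele -0.37 to 1.21, Selp -2.16 to 0.11 and Ackr1 -1.18 to 0.78.

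Counts of all genes called ranged over alternatives from 1 to 150 (diet, mesentery), 1 to 563 (diet, epididymal), 1516 to 4349 (tissue, chow), 728 to 5464 (tissue, high fat) and 0 to 130 (difference of diet effects), the highest being with DESeq2, except on chow (libraries 50 to 53) and for tissue on high fat (pan-endothelial scaling).

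Deviations of libraries from their group means were correlated to look for pairing. Libraries with the same letter across diets correlated at -0.68 to 0.44, and those of the same pool across tissues at -0.15 to 0.58. On chow the same-pool pairs were at 0.03, 0.53 and 0.58 for A, B and C, and pairs of different pools at -0.68 to 0.52. On the high fat diet the same-pool pairs were at -0.15, 0.15 and -0.11, and pairs of different pools at -0.23 to 0.23. The main fit used no pairing. In epididymal fat, pairs across diets within a number range (50 to 53, or 87 and 88) correlated at 0.44 to 0.84 and pairs across ranges at -0.68 to -0.63. With the range as a covariate the members called were 1 (Vcam1, tissue on chow) and 0 elsewhere. With a replicate block for the pool 1 member was called between tissues on chow (Vcam1) and 0 on the high fat diet and for the difference of diet effects. With a replicate block for the letter 0 were called for the diet in either tissue. Under the pool block all genes called were 2 rather than 1 for the difference of diet effects. With 3 libraries a group, the intervals of Vcam1, Selp, Ackr1 and Sele span more than 2 log2 units, and Sele rests on as few as 11 reads in a library.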
